A study of Mus musculus with 16 samples.

Results

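The genes described here carry the signal of the T cell antigen receptor from the cell surface to the nucleus. The set holds 34 genes given by name as T cell receptor signalling genes, and each was found on 1 row of the count table by its symbol, out of 55335 gene identifiers. They were split by role into 6 receptor chains, 12 kinases and adaptors, 10 negative regulators and 6 genes of the NF-kB and NFAT branches. All 34 passed the filter on low counts. The lowest count-per-million value (CPM, counts divided by the library's total) of any of them in a library was 13.7 and the highest 1241.

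The samples were CD8 T cells of the mouse, killer lymphocytes, enriched from spleens of wild-type mice (wt) and of Batf3-/- mice (ko), both of strain C57BL/6. The product of Batf3 is a leucine zipper protein of the AP-1 transcription factor family. All cells were cultured with IL-15 at 50 ng/ml and activated with plate-bound anti-CD3e and anti-CD28 antibodies at 1 µg/ml each, and RNA was taken after 48 h or 72 h. There were 4 libraries in each of the 4 groups. The series text calls them technical replicates and gives neither the age nor the number of mice, so p-values measure the spread between such libraries. The knockout is not described as limited to T cells.

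The receptor that recognises antigen has no signalling domain of its own. It is carried by the CD3 chains, whose tails are phosphorylated by the kinase LCK, held near the receptor by the CD8 co-receptor, and then bound by the kinase ZAP-70. ZAP-70 phosphorylates the scaffolds LAT and SLP-76, from which phospholipase C gamma 1 opens a calcium and NFAT branch, protein kinase C theta with BCL10 and MALT1 an NF-kB branch, and RASGRP1 a Ras branch. Phosphatases, ubiquitin ligases and small adaptors switch the signal off again. In these cultures the receptor complex was engaged through CD3 epsilon, the product of Cd3e.

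The 16 libraries held 29375818 to 39241169 counts. Batf3 stood at 28.7 to 87.7 CPM in the 8 wt libraries and at most 0.366 CPM in the 8 ko libraries. The defining markers of T cells and of the CD8 lineage were high in all groups, with Cd8a and Cd8b1 summing to 593 to 711 CPM, while Cd4, Cd40lg and Foxp3 together stayed at or under 1.54 CPM. Of 8 macrophage, monocyte and granulocyte markers 3 were at 0 in all libraries (Adgre1, S100a8 and S100a9). The sum of the 8 was 1.02 to 2.335 CPM in ko and 1.304 to 1.99 CPM in wt at 48 h. At 72 h it was 8.18 to 11.99 against 5.86 to 7.22 CPM. Most of it was Cd68, at 7.887 to 11.09 CPM in ko against 5.407 to 6.706 in wt at 72 h. Itgam stayed at or under 0.7836 CPM, Cd14 at or under 0.2042, Lyz2 at or under 0.2018 and Csf1r at or under 0.03014. Of 6 B cell markers Ighm held nearly all counts, and the sum was 284 to 318 CPM in ko against 246 to 257 CPM in wt at 48 h, and 304 to 334.5 against 223 to 293 CPM at 72 h. Markers of NK cells, gamma delta T cells, dendritic cells and erythroid cells summed to at most 69.2, 17.4, 5.515 and 0.546 CPM. Most of the NK cell sum was Eomes, which CD8 T cells also express, at 31.0 to 55.5 CPM. It was lower in ko at 72 h, at 31.0 to 35.65 CPM against 47.4 to 55.3 in wt. At 48 h its groups overlapped, at 43.2 to 55.5 CPM in ko and 46.0 to 51.95 in wt. Of the other NK cell markers, Klre1 was at 8.10 to 11.1 CPM in ko against 4.22 to 5.125 in wt at 48 h and at 17.03 to 19.8 against 8.002 to 11.4 at 72 h, and Klrb1c at 1.59 to 2.11 against 0.707 to 0.980 and at 5.795 to 7.36 against 3.71 to 5.49. Ncr1 stayed at or under 0.591 and Klra8 at or under 0.666 CPM. The part of other cells in the results was not tested. Replicate 4 of ko at 48 h and replicate 4 of wt at 72 h stood apart from their groups, with a root mean square log2 distance from their group mates of 0.234 and 0.218 over 9191 genes, against 0.109 to 0.163 in the other 14 libraries. Replicate 4 of ko at 48 h was the highest of its group in 18 of the 34 genes, and replicate 4 of wt at 72 h the lowest of its group in 24.

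Of the 34 genes at 48 h, 5 were higher and 4 lower in ko cells (edgeR quasi-likelihood test, adjusted p below 0.05), which is 26.5% against 7.07% of all 15197 genes tested (4.41% higher and 2.66% lower) and 11.1% of the 5489 genes whose average log2 CPM is 5 or more, the range in which all 34 lie. The higher ones were Cd3d, Cd3g, Ubash3b, Sla and Sla2, and the lower ones Ptprc, Lcp2, Rasgrp1 and Nfatc2. At 72 h 8 were higher and 10 lower, or 52.9%, against 36.4% of all genes (16.9% higher and 19.5% lower) and 53.1% of the genes at like levels, so their share at 72 h was close to that of the genes at like levels. Their median log2 fold change was 0.00 at 48 h and -0.02 at 72 h, beside 0.01 and -0.02 for all genes tested. Of the 9 genes called at 48 h, 7 were called in the same direction at 72 h (77.8%, and 38.9% of the 18 called then), beside 75.4% and 14.7% over all genes. The exceptions were Sla and Sla2, and 14 genes passed at neither time.

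The count at 48 h moved with single libraries, and so did the share of all genes called. It fell to 4 without wt replicate 1 and to 3 without ko replicate 1 or 2 of that time, and rose to 14 without ko replicate 4 and to 17, with 8 higher and 9 lower, without both libraries that stand apart. The share of all genes called in these fits was 3.28%, 3.90%, 3.37%, 12.7% and 16.6%, in the same order. Fold changes come from a fit with a scaling between libraries (TMM). Scaling by library totals, as in the CPM values, shifted the log2 fold changes of all genes by -0.13 at 72 h and by -0.03 at 48 h, and at 72 h it gave 5 higher and 14 lower in place of 8 and 10. Fold changes also ran with exon length. This length counts every base within any annotated exon of a gene, so it can exceed that of the transcript in use. Over the 34 genes, the Spearman correlation of log2 fold change with exon length was -0.44 at 48 h and -0.31 at 72 h, from genes that share the same libraries. The 4 genes lower at 48 h had a median exon length of 8089 bases and the 5 higher ones of 3269. For each library, its deviation from the mean of all 16 was correlated (Spearman) with exon length. This used the genes of that distance measure with a known exon length. At 48 h the correlation was 0.00777 to 0.110 in wt. It was -0.283 to -0.137 in ko replicates 1 to 3 of 48 h and 0.103 in replicate 4. At 72 h it was 0.211 to 0.324 in wt replicates 1 to 3, 0.0425 in wt replicate 4 and -0.166 to -0.0516 in ko. Every wt library of 72 h thus had a positive value and every ko library of 72 h a negative one.

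**Figure D1:**
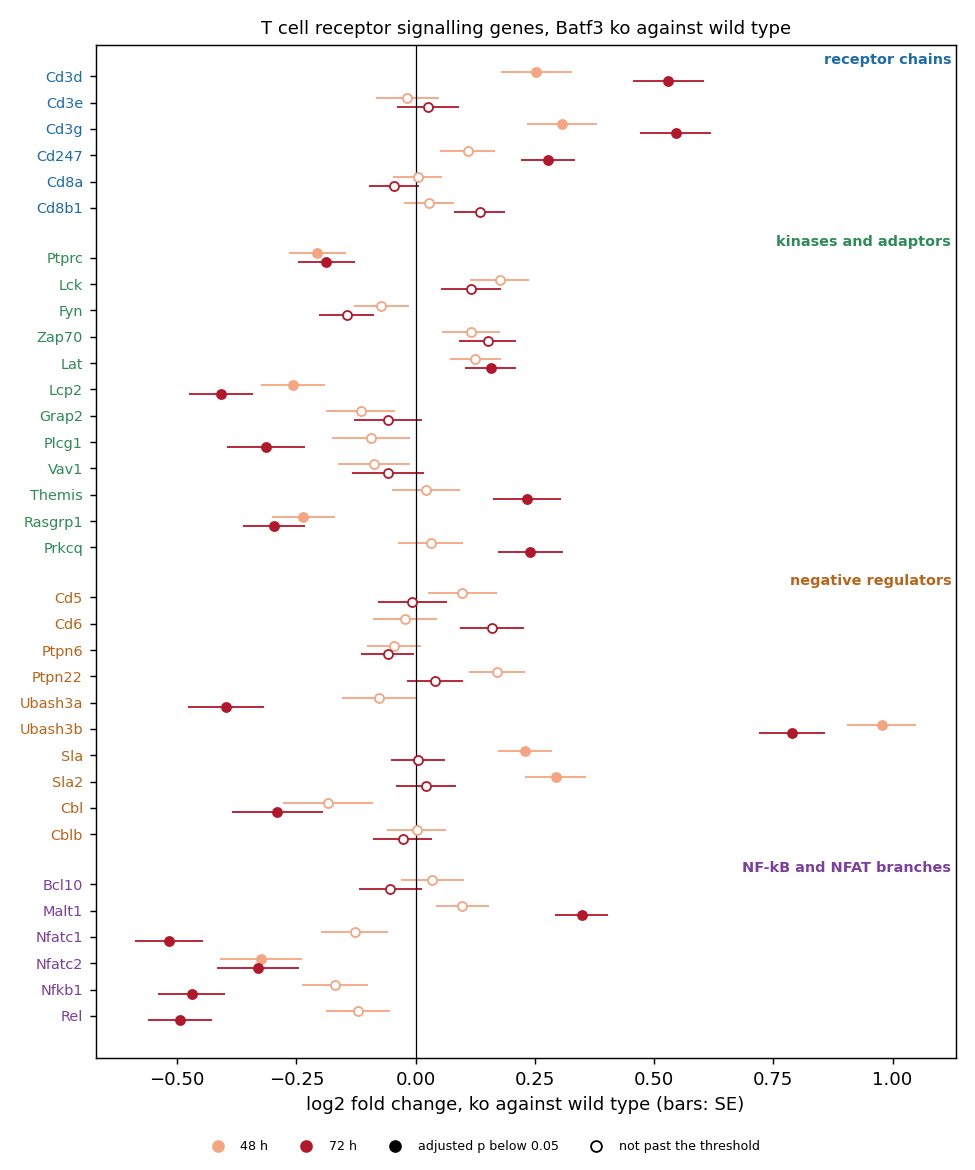
Log2 fold change of ko against wild type (horizontal axis; bars are the SE) for the 34 genes, grouped by role, at 48 h and 72 h; filled points passed the threshold. Among the receptor chains Cd3d and Cd3g lie farthest right, at 0.53 and 0.55 at 72 h, Ubash3b lies farthest right at both times, and Nfatc1, Nfkb1 and Rel lie farthest left at 72 h.

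Among the receptor chains, Cd3d and Cd3g were higher in ko cells, while Cd3e, beside them on the chromosome, did not pass. Of the 6 chains 2 were higher at 48 h and 3 at 72 h, and 0 were lower. These shares were 33.3% and 50%, beside 7.07% and 36.4% of all genes and 11.1% and 53.1% of those at like levels. The median log2 fold change of the chains was 0.07 and 0.21. Cd3d encodes the CD3 delta chain, which pairs with CD3 epsilon. It is on chromosome 9 from 44981786 to 44987339 on the plus strand (ENSMUSG00000032094; GENCODE M21 on GRCm38, used for all positions and exon lengths). Its CPM was 211, 204, 219.6 and 229 in wt and 263, 275, 245 and 220.0 in ko libraries at 48 h. At 72 h it was 398, 399.5, 396.5 and 432 in wt and 509, 517, 584 and 543 in ko. The ko libraries were all above the wt libraries at 72 h, and at 48 h the groups overlapped, through replicate 4 of ko. The log2 fold change was 0.25 (SE 0.07, adjusted p = 0.0384) at 48 h and 0.53 (SE 0.07, adjusted p = 7.21e-06) at 72 h. The 48 h call was lost in 12 of 26 other settings, among them median-ratio scaling (adjusted p = 0.0521), the replicate block (adjusted p = 0.069), exon length offsets (adjusted p = 0.0527) and leaving out any one of wt replicates 1, 2 and 3 or ko replicates 1, 2 and 3 of that time (highest adjusted p = 0.229, without ko replicate 2). Leaving out wt replicate 2 or ko replicate 3 of 72 h, which enter the same fit, ended it too (adjusted p = 0.0501 and 0.0585). In bulk libraries, fewer cells of a type and less RNA per cell cannot be told apart.

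Cd3g encodes CD3 gamma, the other partner of CD3 epsilon, and lies on chromosome 9 from 44969572 to 44980431 on the minus strand (ENSMUSG00000002033). Its CPM was 198, 199, 206 and 203 in wt against 236, 272, 246 and 218 in ko at 48 h. By 72 h Cd3g stood at 393, 425, 413 and 466 in wt against 533, 546, 613 and 579 in ko. No ko library overlapped the wt libraries of its time. This gave a log2 fold change of 0.31 (SE 0.07, adjusted p = 0.0125) and 0.55 (SE 0.07, adjusted p = 4.85e-06). Of 26 other settings 1 ended the 48 h call, leaving out ko replicate 2 of 48 h (adjusted p = 0.113).

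Cd3e, which encodes the chain that the activating antibody binds, has its start 27.8 kb from that of Cd3d (chromosome 9, 44998740 to 45009627, minus strand, ENSMUSG00000032093). Its CPM was 96.7, 108, 109 and 95.95 in wt and 86.3, 103.5, 106 and 99.4 in ko at 48 h. Its values at 72 h were 183, 171.5, 191 and 174 in wt and 157, 171, 164 and 179 in ko. The groups overlapped at both times, with a log2 fold change of -0.02 (SE 0.07, adjusted p = 0.915) and 0.03 (SE 0.07, adjusted p = 0.791). Within a library, a ratio of 2 genes does not depend on the scaling, but it can carry the trend with exon length. The exons of Cd3d cover 1815 bases and those of Cd3e 4080. The part of exon length in the ratios given here and below was not tested. The ratio of Cd3d to Cd3e CPM was 2.12 ± 0.219 in wt and 2.56 ± 0.381 in ko at 48 h, and 2.27 ± 0.177 in wt and 3.22 ± 0.252 in ko at 72 h (SD, n = 4 each). At 72 h the ko libraries ran from 3.02 to 3.56 and the wt libraries from 2.07 to 2.48. The ratio of Cd3g to Cd3d ran from 0.886 to 1.08 over the 16 libraries. These pairs, and the others below, were chosen after their values were seen, so the ratios are a description. Cd3d and Cd3g start 1355 bases apart and are read away from each other.

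**Figure D2:**
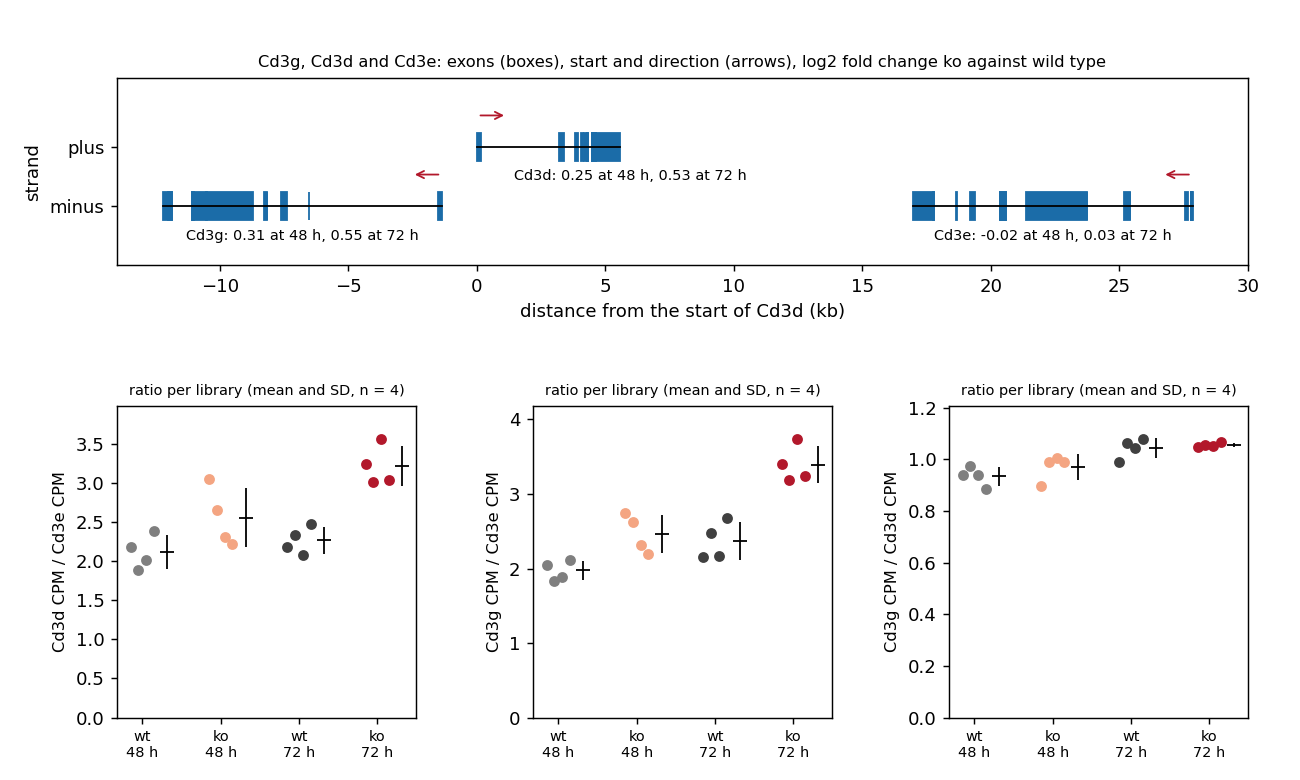
Top, the 3 CD3 genes by distance from the start of Cd3d (kb), with exons as boxes, strand on the vertical axis and arrows at the starts. Bottom, ratios of CPM between the genes in each library (points) with mean and SD (n = 4): Cd3d to Cd3e and Cd3g to Cd3e are highest in ko at 72 h, at 3.22 and 3.39, while Cd3g to Cd3d stays between 0.886 and 1.08.

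Since Cd3d and Cd3g were both higher in ko cells, the 250 bases before the start of each are shown, from RefSeq's annotation of GRCm38.p6. Each is written in the direction of its gene, 5′ to 3′, with matches to the NFAT core GGAAA, on either strand, in capitals. Both lie in the stretch between the starts.
Cd3d, chr9:44981536-44981785, plus strand: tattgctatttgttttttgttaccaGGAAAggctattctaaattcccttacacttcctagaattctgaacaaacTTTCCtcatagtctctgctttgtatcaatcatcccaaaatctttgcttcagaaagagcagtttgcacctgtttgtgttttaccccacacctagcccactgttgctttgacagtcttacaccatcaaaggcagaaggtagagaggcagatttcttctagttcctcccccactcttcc
Cd3g, chr9:44980432-44980681, minus strand: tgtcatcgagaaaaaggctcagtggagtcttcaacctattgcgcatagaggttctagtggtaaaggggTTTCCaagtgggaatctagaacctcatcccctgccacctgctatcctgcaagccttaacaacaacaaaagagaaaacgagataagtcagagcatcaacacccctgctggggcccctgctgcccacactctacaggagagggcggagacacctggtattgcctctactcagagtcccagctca
The windows hold 2 and 1 such matches, and 55.6% of 32851 promoter windows of the same length hold at least 1. RefSeq promoter windows were found for 28 of the 34 genes, 36 windows in all. The AP-1 site TGANTCA, searched on both strands, was in 0 of the 36 windows and in 6.75% of all windows. Its composites with an IRF site (TGANTCA followed after 4 bases by GAAA, or directly preceded by GAAA) were in 0 of the 36 and in 0.0974% and 0.1% of all, and overlap with it by construction. The CRE site TGACGTCA was in 1 of the 36 windows, in Zap70 18 bases before the start, and in 1.55% of all. Letters in these windows are no record of binding.

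Cd247 encodes the zeta chain, which brings most of the phosphorylation sites to the receptor. It stood at 201 ± 7.98 and 212 ± 1.66 CPM in wt and ko at 48 h, and at 217 ± 6.37 and 241 ± 14.03 CPM at 72 h (SD, n = 4 each). It was higher in ko at 72 h, at 0.28 (SE 0.06, adjusted p = 0.000486), and at 0.11 it did not pass at 48 h. On chromosome 1 it lies 25.2 Mb from Batf3, and Ptprc lies 52.9 Mb and Zap70 154 Mb from it; sequence carried with the ko allele was not tested. Cd8a, one chain of the CD8 co-receptor, was at 289.5, 298.5, 294 and 286 CPM in wt and 261, 283, 308 and 290.5 in ko at 48 h. The 72 h values were 345, 339, 364 and 333 CPM in wt and 313, 314, 301 and 297 in ko. By CPM all 4 ko libraries lay below the wt libraries at 72 h, but in the TMM fit the log2 fold change was -0.05 (SE 0.05, adjusted p = 0.531); with library-size scaling it was -0.17 and passed (adjusted p = 0.0129). Cd8b1, the other chain, stood at 0.13 (SE 0.05, adjusted p = 0.0523) at 72 h and passed in 8 of 26 other settings, among them DESeq2 and limma-voom (adjusted p = 0.0277 and 0.0458). Per kilobase of exon, mean CPM in wt cells at 72 h was 233 for Cd8b1, 224 for Cd3d, 129.8 for Cd3g, 94.9 for Cd8a, 44.1 for Cd3e and 40.7 for Cd247. In ko cells at 72 h the order began with Cd3d, at 296.5 against 234 for Cd8b1 and 174 for Cd3g.

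The kinase genes Lck, Fyn and Zap70, whose products start the signal, did not pass the test between the genotypes, while Lcp2, Rasgrp1 and Ptprc were lower in ko cells at both times. Of the 12 kinases and adaptors 3 were lower and 0 higher at 48 h, and 4 were lower and 3 higher at 72 h. That is 25% and 58.3%, beside 7.07% and 36.4% of all genes and 11.1% and 53.1% of those at like levels. The median log2 fold change of this role was -0.08 and -0.06. Lck, the kinase that phosphorylates the CD3 tails, had 453, 463, 503 and 479 CPM in wt and 522, 550.3, 547 and 471 in ko at 48 h. By 72 h Lck had 490.0, 498, 528 and 513 CPM in wt and 493, 516, 516 and 489 in ko. The groups overlapped at both times, with a log2 fold change of 0.18 (SE 0.06, adjusted p = 0.085) and 0.12 (SE 0.06, adjusted p = 0.152). It passed at 48 h without ko replicate 4 of that time (adjusted p = 0.00571) and, at either time, with both libraries that stand apart left out (adjusted p = 0.00208 and 0.0428). Fyn, a relative of Lck, stood at -0.07 and -0.14 (SE 0.06, adjusted p = 0.0509); it passed at 72 h in 7 of 26 other settings, among them library-size scaling (-0.27, adjusted p = 0.00184) and DESeq2 (adjusted p = 0.0287).

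Zap70, the kinase that binds the phosphorylated tails, had 124, 122, 127 and 133 CPM in wt and 127, 131, 129 and 148 in ko at 48 h. The 72 h libraries had 189, 186.5, 182 and 160.4 CPM in wt and 181, 199.8, 172 and 176 in ko. The groups overlapped at both times. Zap70 stood at 0.12 (SE 0.06, adjusted p = 0.266) at 48 h and 0.15 (SE 0.06, adjusted p = 0.0519) at 72 h on the log2 scale, and 9 of 26 other settings took the 72 h value past the threshold, among them DESeq2 and limma-voom (adjusted p = 0.0358 and 0.0466). Lat, the membrane scaffold, had 329.5, 311, 329.7 and 342 CPM in wt and 362, 353, 338 and 343 in ko at 48 h. By 72 h Lat had 305.5, 289, 301 and 285 CPM in wt and 297, 309.9, 288 and 309.5 in ko. Its groups overlapped at both times as well. It passed at 72 h, at 0.16 (SE 0.05, adjusted p = 0.0234), a call that 6 of 26 other settings ended, among them library-size scaling (log2 fold change 0.03, adjusted p = 0.673).

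Lcp2, which encodes the scaffold SLP-76, had the lowest log2 fold changes of this role at both times. Its CPM was 222, 217, 223 and 211 in wt and 154, 169.8, 201.5 and 188 in ko at 48 h. By 72 h Lcp2 stood at 219, 212, 226.5 and 201 in wt and 145, 149, 134.5 and 165 in ko. No ko library reached a wt library of its time. This gave a log2 fold change of -0.26 (SE 0.07, adjusted p = 0.0194) and -0.41 (SE 0.07, adjusted p = 4.78e-05). The call at 48 h was lost without wt replicate 1 or ko replicate 1 or 2 of that time (adjusted p = 0.0612, 0.0829 and 0.0536). Grap2, the adaptor GADS that joins SLP-76 to LAT, stood at -0.12 (SE 0.07, adjusted p = 0.364) and -0.06 (SE 0.07, adjusted p = 0.564), and passed at 48 h without ko replicate 4 of that time and with both libraries that stand apart left out (adjusted p = 0.0151 and 0.00568).

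Rasgrp1, the activator of Ras, was lower at both times. Its mean CPM was 81.6 ± 6.85 in ko against 98.4 ± 4.13 in wt at 48 h and 168 ± 10.97 against 225 ± 21.5 at 72 h (SD, n = 4 each), and the libraries did not overlap at either time. The log2 fold change was -0.24 (SE 0.07, adjusted p = 0.0289) and -0.30 (SE 0.07, adjusted p = 0.000906). Ptprc, which encodes the phosphatase CD45 that keeps LCK active, was lower too, at -0.21 (SE 0.06, adjusted p = 0.0324) and -0.19 (SE 0.06, adjusted p = 0.0148). Its exons cover 18313 bases, the most of the 34 genes, and with exon length offsets both calls were lost (-0.07 and -0.01, adjusted p = 0.555 and 0.887). Without wt replicate 1 or 2 or ko replicate 1 or 3 of 48 h, and with only the groups compared, its 48 h call was lost as well (highest adjusted p = 0.136). The 48 h call of Rasgrp1 was lost without wt replicate 1 or 2 or ko replicate 1, 2 or 3 of that time (highest adjusted p = 0.0979).

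Plcg1, which encodes phospholipase C gamma 1, was lower at 72 h, at -0.31 (SE 0.08, adjusted p = 0.00394), with 117.5 ± 6.37 CPM in ko against 159.8 ± 18.9 in wt (SD, n = 4 each). At 48 h it stood at -0.09 and passed with both libraries that stand apart left out (adjusted p = 0.0228). Prkcq, protein kinase C theta, and Themis, an adaptor of developing and mature T cells, were higher at 72 h, at 0.24 (SE 0.07, adjusted p = 0.0076) and 0.23 (SE 0.07, adjusted p = 0.0121). Both calls were lost with library-size scaling (adjusted p = 0.207 and 0.19), and that of Themis also without wt replicate 3 of 72 h (adjusted p = 0.0689). Vav1, the exchange factor that acts on Rac, stood at -0.09 and -0.06 and did not pass.

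Of the negative regulators, Ubash3b had the largest log2 fold change of all 34 genes at both times. Of the 10 genes of this role 3 were higher and 0 lower at 48 h, and 1 was higher and 2 lower at 72 h. The share called was 30% at both times, beside 7.07% and 36.4% of all genes and 11.1% and 53.1% of those at like levels. The median log2 fold change of the 10 was 0.05 and 0.00. Ubash3b and Ubash3a encode the phosphatase STS-1 and its weaker relative STS-2, which restrain ZAP-70. The Ubash3b gene is on chromosome 9 from 41011098 to 41161697 (ENSMUSG00000032020) and Ubash3a on chromosome 17 from 31207873 to 31246892 (ENSMUSG00000042345). Ubash3b had 16.3, 14.1, 13.7 and 14.02 CPM in wt and 27.1, 27.5, 28.1 and 28.9 in ko at 48 h. By 72 h Ubash3b had 36.7, 35.4, 34.9 and 29.6 CPM in wt and 53.6, 56.5, 50.8 and 55.2 in ko. The ko libraries were above the wt libraries of their time without overlap. Between ko and wt, Ubash3b had a log2 fold change of 0.98 (SE 0.07, adjusted p = 1.25e-09) and 0.79 (SE 0.07, adjusted p = 1.35e-08), and both calls held in all 26 other settings. Its difference between the times did not pass (-0.19, SE 0.10, adjusted p = 0.287).

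Ubash3a, named beside it after its values were seen, moved the other way at 72 h. It had 68.99, 70.02, 71.2 and 70.5 CPM in wt and 57.5, 60.9, 66.9 and 75.2 in ko at 48 h. At 72 h it had 75.2, 64.6, 70.5 and 58.97 CPM in wt and 41.8, 43.5, 48.9 and 52.7 in ko, without overlap. The log2 fold change was -0.08 (SE 0.08, adjusted p = 0.619) and -0.40 (SE 0.08, adjusted p = 0.000355). For Ubash3a the difference between the times did not pass in edgeR (-0.32, SE 0.11, adjusted p = 0.0888), but it passed in 3 of 25 other settings. The ratio of Ubash3b to Ubash3a CPM within a library was 0.207 ± 0.0197 in wt and 0.432 ± 0.0383 in ko at 48 h, and 0.508 ± 0.0267 and 1.17 ± 0.143 at 72 h (SD, n = 4 each). Each ko library had a higher ratio than each wt library of its time. Per kilobase of exon, Ubash3b stood at 1.98 CPM and Ubash3a at 6.24 in wt at 48 h, and at 7.37 and 4.16 in ko at 72 h.

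**Figure D3:**
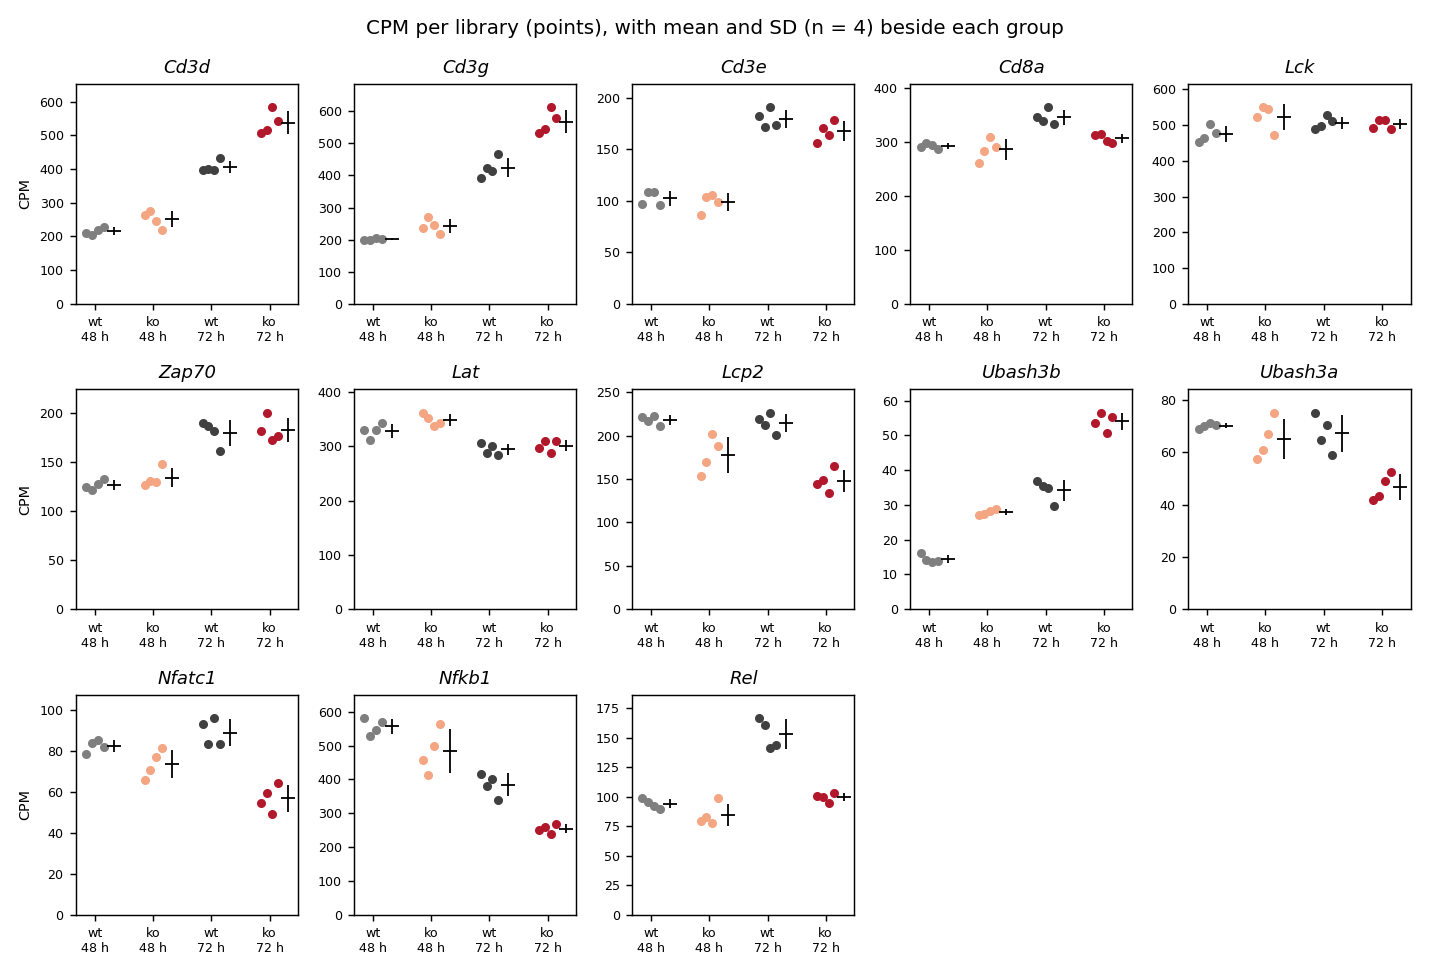
CPM in each library (points) with mean and SD (n = 4) for 13 of the genes in the 4 groups. Ubash3b is at 14.5 and 27.9 CPM in wt and ko at 48 h and at 34.2 and 54.0 at 72 h, Cd3d and Cd3g are highest in ko at 72 h, and in the panels of Nfatc1, Nfkb1, Rel and Lcp2 the ko libraries lie below the wt libraries at 72 h.

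Sla and Sla2 encode adaptors that lead the receptor chains to degradation. Sla stood at 0.23 (SE 0.06, adjusted p = 0.0148) and Sla2 at 0.29 (SE 0.06, adjusted p = 0.00602) at 48 h, both higher in ko, and at 0.01 and 0.02 at 72 h, where neither passed. The differences between the times were -0.22 (SE 0.08, adjusted p = 0.101) and -0.27 (SE 0.09, adjusted p = 0.076) and did not pass. With library-size scaling both did (adjusted p = 0.0143 and 0.0185). By CPM, all ko libraries of Sla lay below the wt libraries at 72 h, at 143.6 to 151.8 against 154.1 to 166.7. Leaving out ko replicate 1 of 48 h ended the 48 h call of Sla (adjusted p = 0.0504), and leaving out ko replicate 2 that of Sla2 (adjusted p = 0.055). Cbl, a ubiquitin ligase of the receptor, was lower at 72 h, at -0.29 (SE 0.10, adjusted p = 0.0201), and that call was lost with exon length offsets (adjusted p = 0.138) and without wt replicate 1 or 2 or ko replicate 3 or 4 of 72 h (highest adjusted p = 0.087). Its relative Cblb, which sets the need for CD28 costimulation, stood at 0.00 and -0.03 and did not pass.

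The phosphatase genes Ptpn6 and Ptpn22 did not pass at either time. Ptpn6, which encodes SHP-1, stood at -0.04 and -0.06, and with library-size scaling at -0.19 at 72 h, where it passed (adjusted p = 0.0127). Ptpn22, whose product acts on LCK and ZAP-70, stood at 0.17 (SE 0.06, adjusted p = 0.079) and 0.04, and passed at 48 h in 3 of 26 other settings (without ko replicate 4, without both libraries that stand apart and with exon length offsets; adjusted p = 0.0411, 0.0259 and 0.0212). By CPM, all ko libraries of Ptpn22 lay below the wt libraries at 72 h, at 276.2 to 282.2 against 287.5 to 305.3. The surface receptors Cd5 and Cd6, scavenger receptor relatives that dampen the signal, stood at 0.10 and -0.02 at 48 h and at -0.01 and 0.16 at 72 h. Cd6 passed at 72 h in 3 of 26 other settings (lowest adjusted p = 0.000762, with exon length offsets).

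The transcription factor genes Nfatc1, Nfatc2, Nfkb1 and Rel at the end of the NF-kB and NFAT branches were lower in ko cells at 72 h. Of the 6 genes of this role 1 was lower at 48 h, and 4 were lower and 1 higher at 72 h. Called were thus 16.7% and 83.3%, beside 7.07% and 36.4% of all genes and 11.1% and 53.1% of those at like levels. The median log2 fold change of the 6 was -0.12 and -0.40. Nfatc1 encodes an NFAT factor whose gene is itself induced by receptor signals. It had 78.4, 83.6, 85.4 and 81.7 CPM in wt and 65.7, 70.3, 77.1 and 81.2 in ko at 48 h. By 72 h Nfatc1 had 92.9, 83.3, 95.8 and 83.2 CPM in wt and 54.5, 59.5, 49.02 and 64.2 in ko. The groups overlapped at 48 h and were apart at 72 h. Between ko and wt, Nfatc1 had a log2 fold change of -0.13 (SE 0.07, adjusted p = 0.302) and -0.52 (SE 0.07, adjusted p = 6.94e-06). Nfatc2, the NFAT factor already present in resting T cells, was lower at both times, at -0.33 (SE 0.09, adjusted p = 0.0223) and -0.33 (SE 0.09, adjusted p = 0.00429). Its 48 h call was lost without wt replicate 1 or 3 or ko replicate 1 or 2 of that time (highest adjusted p = 0.0777).

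Rel encodes c-Rel, an NF-kB subunit of lymphocytes, and is on chromosome 11 from 23736847 to 23770970 (ENSMUSG00000020275). It had 98.7, 95.8, 92.3 and 89.5 CPM in wt and 79.2, 82.9, 77.6 and 98.6 in ko at 48 h. At 72 h it had 166.5, 161, 141 and 144 CPM in wt and 101, 99.4, 94.8 and 103 in ko, all below the wt libraries. Between ko and wt, Rel had a log2 fold change of -0.12 (SE 0.07, adjusted p = 0.304) and -0.49 (SE 0.07, adjusted p = 5.16e-06). Nfkb1, the gene of the p105 precursor and the p50 subunit, on chromosome 3 from 135584655 to 135691547 (ENSMUSG00000028163), had 581, 529, 547 and 569 CPM in wt and 458, 412, 499.8 and 565 in ko at 48 h. By 72 h Nfkb1 had 417, 379.5, 402 and 339.8 CPM in wt and 250.1, 259.6, 238 and 269.5 in ko. Here too the groups overlapped at 48 h, where ko replicate 4 was among the wt values, and were apart at 72 h. The log2 fold change was -0.17 (SE 0.07, adjusted p = 0.144) and -0.47 (SE 0.07, adjusted p = 1.56e-05). For Nfkb1 the difference between the times did not pass in edgeR (-0.30, SE 0.10, adjusted p = 0.0734), but it passed in 5 of 25 other settings. At 48 h both Rel and Nfkb1 passed with both libraries that stand apart left out (adjusted p = 0.0431 and 0.00706), and Nfkb1 also without ko replicate 4 alone (adjusted p = 0.0214).

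Rel was the single gene of the 28 with a promoter window that held the NF-kB motif searched (GGG, any 2 bases, TT, any base, CC, on either strand), which 4.11% of all windows hold, so its 250 bases before the start are shown (RefSeq, GRCm38.p6). Capitals mark 2 overlapping matches to that motif, 92 and 91 bases before the start, which also hold the NFAT core GGAAA.
Rel, chr11:23770970-23771219, minus strand: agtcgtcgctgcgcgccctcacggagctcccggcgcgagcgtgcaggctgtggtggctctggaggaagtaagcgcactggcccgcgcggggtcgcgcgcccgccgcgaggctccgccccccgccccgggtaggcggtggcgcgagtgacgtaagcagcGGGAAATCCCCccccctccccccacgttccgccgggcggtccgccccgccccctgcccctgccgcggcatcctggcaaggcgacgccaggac
The window was read from the reference, and nothing in these data measures binding to it.

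Malt1, which encodes a protease that acts with BCL10, was higher in ko at 72 h, at 0.35 (SE 0.06, adjusted p = 3.13e-05), with 379, 379, 384 and 377 CPM in ko against 336, 340.5, 299 and 326 in wt. Those 4 ko values lay above all 4 wt values. At 48 h Malt1 stood at 0.10 and passed with exon length offsets (adjusted p = 0.027). Its difference between the times did not pass in edgeR (0.25, SE 0.08, adjusted p = 0.0582), but it passed in 4 of 25 other settings. Bcl10, its partner, stood at 0.04 and -0.05; it passed at 72 h with library-size scaling, as lower (-0.18, adjusted p = 0.035). The ratio of Malt1 to Bcl10 CPM was 5.75 ± 0.489 in wt and 7.61 ± 0.601 in ko at 72 h (SD, n = 4 each), a pair chosen after its values were seen.

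Whether the genotype effect differed between the times was tested by the interaction. Of the 34 genes 2 passed, both lower, which is 5.88% against 5.61% of all genes (2.08% higher and 3.53% lower) and 10.1% of those at like levels. They were Nfatc1 (-0.39, SE 0.10, adjusted p = 0.0246) and Rel (-0.37, SE 0.10, adjusted p = 0.0216). For Rel, leaving out wt replicate 4 of 48 h or ko replicate 3 of 72 h ended the call (adjusted p = 0.0563 and 0.067). For Nfatc1, leaving out any of 6 libraries did so, wt replicates 1 and 4 and ko replicate 3 of 48 h, and wt replicate 3 and ko replicates 1 and 3 of 72 h (highest adjusted p = 0.0955). The count ran from 0 to 5 over the libraries left out. It was 0 without wt replicate 4 of 48 h or ko replicate 3 of 72 h, 1 without the other 4 of those 6 libraries, and 5 without wt replicate 4 of 72 h. With library-size scaling it was 6, all lower, and in DESeq2 4, with 1 higher.

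From 48 h to 72 h 23 rose and 4 fell in wt cells, 79.4% against 63.6% of all genes and 77.4% of those at like levels. In ko cells 23 rose and 7 fell, 88.2% against 68% of all genes and 81% of those at like levels. Of all genes tested 33.6% rose and 29.9% fell in wt, and 34.4% rose and 33.6% fell in ko. Of the genes at like levels 32% rose and 45.3% fell in wt, and 33.6% rose and 47.4% fell in ko. The median log2 fold change of the 34 was 0.36 in wt and 0.30 in ko, beside 0.05 and 0.03 for all. In both genotypes 20 of the genes rose and 4 fell (Fyn, Lat, Vav1 and Nfkb1). With exon length offsets Lat (adjusted p = 0.582 in wt and 0.983 in ko) and Vav1 (adjusted p = 0.217 and 0.601) did not pass in either genotype, and 26 genes rose and 2 fell in wt and 27 rose and 4 fell in ko. In ko cells the call of Lat was also lost without ko replicate 1 or 2 of 48 h or ko replicate 3 of 72 h (highest adjusted p = 0.0828), and that of Vav1 without ko replicate 3 of either time (adjusted p = 0.059 and 0.0833). The largest rise was that of Malt1, by 1.27 in wt and 1.52 in ko on the log2 scale. Ubash3b rose by 1.21 and 1.02, Rasgrp1 by 1.17 and 1.11, Ptpn22 by 1.06 and 0.93 and Cd3g by 1.05 and 1.29. Nfkb1 had the largest fall, -0.56 in wt and -0.86 in ko. Rel rose in both, by 0.68 in wt and 0.30 in ko, and Cd3e by 0.78 and 0.83. Nfatc1 fell in ko cells, at -0.31 (SE 0.07, adjusted p = 0.000581), and stood at 0.08 (SE 0.07, adjusted p = 0.322) in wt cells.

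**Figure D4:**
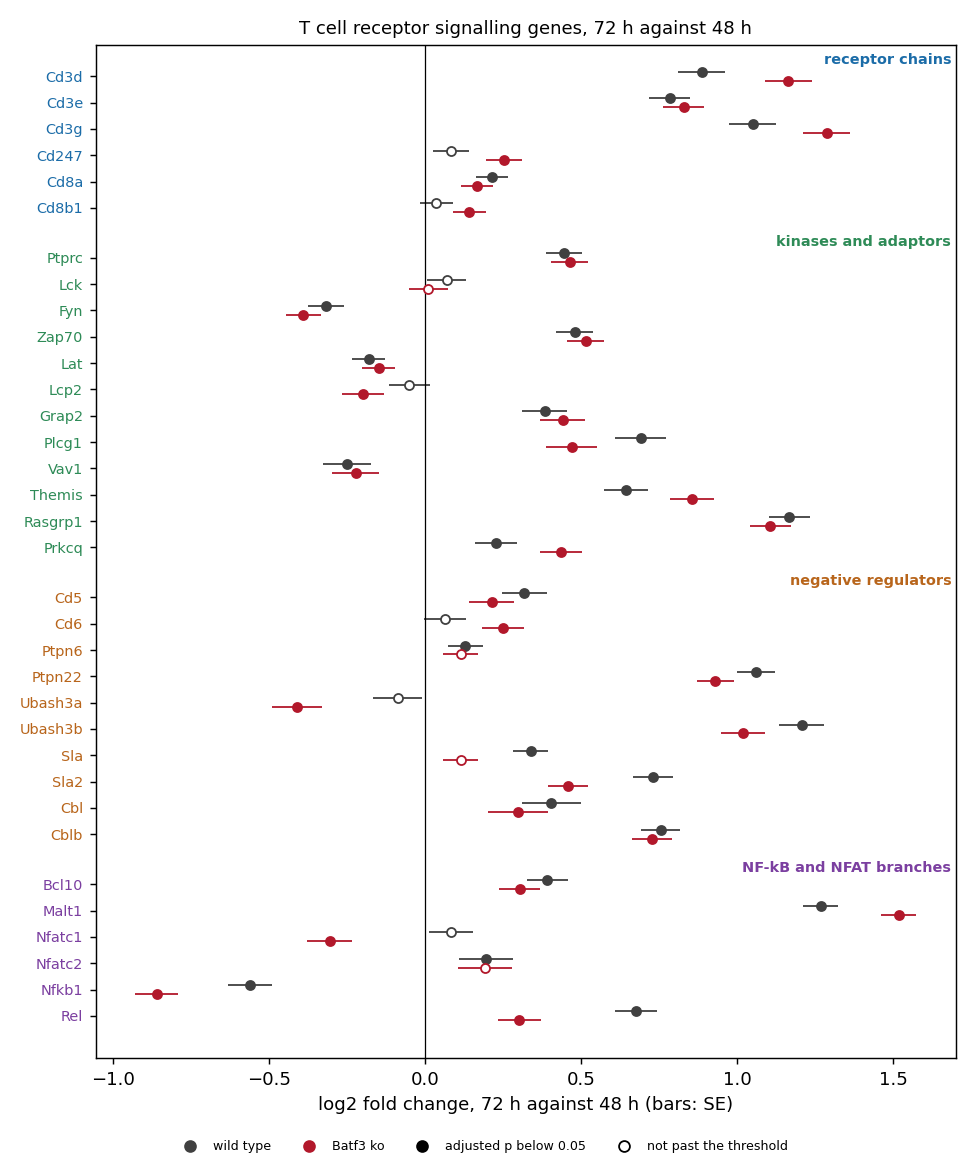
Log2 fold change from 48 h to 72 h (horizontal axis; bars are the SE) of the 34 genes in wild-type and ko cells, grouped by role; filled points passed the threshold. Most points lie right of 0, Malt1 farthest at 1.27 and 1.52, and Nfkb1 lies farthest left at -0.56 and -0.86.

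The rest of the pathway was read from a list of 97 further genes. At 48 h 7 were higher and 4 lower in ko cells (11.3% of them, beside 7.07% of all genes and 11.1% of those whose average log2 CPM is 5 or more), and at 72 h 17 were higher and 29 lower (47.4%, beside 36.4% and 53.1%). The antigen-binding chains were higher where they passed. The constant segment Trbc2 stood at 0.30 at both times (edgeR, adjusted p = 0.0349 at 48 h and 0.00788 at 72 h). The constant segment Trbc1 stood at 0.235 at 72 h (edgeR, adjusted p = 0.0417). For both segments the CPM of the genotypes overlapped at both times. Their exons cover 692 bases in Trbc2 and 749 in Trbc1, and the part of exon length was not tested. These are near-identical copies, so their reads are uncertain. Icos, a costimulatory receptor, was lower at 48 h (-0.26, edgeR, adjusted p = 0.042), though its CPM overlapped between the genotypes. Trac stood at 0.10 (SE 0.05, adjusted p = 0.273) and 0.07 (SE 0.05, adjusted p = 0.284). Of 25 further kinases and adaptors 3 were higher and 12 lower at 72 h, or 60%, beside the same 36.4% and 53.1%. The TEC family kinase Txk was higher at both times (0.55, SE 0.09, and 0.63, SE 0.09), and the adaptor Skap1 (0.47) and Nck1 (0.46) at 72 h. Tespa1 (-0.96, SE 0.15), Trat1 (-0.81) and the adaptor Sh2d2a (-0.48) had the lowest log2 fold changes of ko against wt there. At 48 h Trat1 (-0.49) and Wipf1 (-0.22) were lower in ko (edgeR, adjusted p = 0.00852 and 0.0446).

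Of 16 further calcium and NFAT genes 4 were lower and 0 higher at 72 h. That is 25%, beside 36.4% of all genes and 53.1% of those whose average log2 CPM is 5 or more. Itpr1, a receptor that releases stored calcium, was lower at 48 h (-0.43, SE 0.10) and at 72 h (-0.97, SE 0.10), and Cabin1 (-0.56) and the calcium sensor Stim2 (-0.27) at 72 h. Of 15 further NF-kB genes 0 passed at 48 h in edgeR (1 had an unadjusted p below 0.05, and 0 passed in DESeq2 and 0 in limma-voom). At 72 h 6 were lower and 3 higher, or 60%, beside the same 36.4% and 53.1%. Nfkbid (-0.55), Nfkbie (-0.38) and Nfkb2 (-0.38) had the lowest log2 fold changes of ko against wt. Nfkbib (0.27) and Tnfaip3 (0.23), which encodes the ubiquitin-editing inhibitor A20, were among those higher. Of 12 Ras and ERK genes 0 passed at 48 h in edgeR (4 at an unadjusted p below 0.05, 3 in DESeq2 and 0 in limma-voom). At 72 h Rasa2 was lower (-0.17, edgeR, adjusted p = 0.0488) and Mapk3, which encodes ERK1, was higher (0.22, adjusted p = 0.00798).

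Among 20 further negative regulators 4 were higher and 0 lower at 48 h, and 6 were higher and 5 lower at 72 h. That is 20% and 55%, beside 7.07% and 36.4% of all genes and 11.1% and 53.1% of the well expressed ones. The inhibitory receptor gene Lag3 was higher at both times (0.46, SE 0.09, and 0.50, SE 0.09), and so was Pdcd1, which encodes PD-1, of the receptor list (0.39, SE 0.06, and 0.22, SE 0.06). Sit1 (0.40) and Dok2 (0.35) were higher at 48 h, and the phosphatase Ptpn2 (0.48) and Dok1 (0.37) at 72 h. Sh2b3 (-0.59), Ptpn7 (-0.52) and Ptpn11, which encodes SHP-2 (-0.42), were lower at 72 h. In the interaction 11 of the 97 genes passed, 2 higher and 9 lower (11.3%, beside 5.61% of all genes and 10.1% of the well expressed ones).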

How the data were processed

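RNA from the 16 libraries was measured by bulk RNA sequencing, and the authors deposited 1 table of raw counts per gene. The submitters' processing notes name STAR 2.7, bcl2fastq 2.2.0, the genome build GRCm38 and featureCounts, and the strand setting is not given in the sources used here. Counts of genes that overlap or have near-identical copies are uncertain, since how their reads were assigned is not known here. Of 55335 identifiers 55154 matched GENCODE M21.

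CPM is the count over the library's total of 29375818 to 39241169, so that 3 counts stand for 0.0765 to 0.102 CPM. Fold changes come from edgeR 4.0.16 in R 4.3.3. The fit used TMM scaling, kept 15197 genes by a minimum count of 10, held all 4 groups with no covariate, and used the robust quasi-likelihood test with Benjamini-Hochberg adjustment over all genes and a threshold of 0.05. The scripts were tested on simulated data. No 2 libraries of a group agreed within sampling noise.

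Alternatives included DESeq2 1.42.0, limma-voom (limma 3.58.1), scaling by median ratios or by library size, other filters, only the groups compared, a replicate block and leaving out each library. Leaving out both libraries that stand apart, and offsets for the trend of each library with exon length, were chosen after seeing the data. The 34 genes and all lists were chosen with earlier results of these data known. Values per library are given for genes past the threshold between genotypes with a log2 change of at least 0.4 in size, and for Cd3e, Cd8a, Lck, Zap70 and Lat. Ubash3a and, at 72 h, Malt1 were added after their values were seen. Of the other pathway genes, up to 3 per role, direction and comparison whose average log2 CPM is 3 or more are named, except that some are not reported here.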

Additional observations from a re-analysis of the deposited data

Results flagged for a closer look

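In 5 of 136 sets of 4 libraries, 1 library stood far from the other 3 by Dixon's test, which chance gives in about 1 of 20 sets. Cd3d was at 432.0 CPM in wt replicate 4 of 72 h, above 396.5 to 399.5 CPM in the others, and Ubash3b at 16.3 CPM in wt replicate 1 of 48 h, above 13.7 to 14.1 CPM. Grap2 was at 173.9 CPM in wt replicate 1 of 48 h, above 167.1 to 168.0 CPM, and Rasgrp1 at 91.79 CPM in ko replicate 4 of 48 h, above 77.2 to 79.6 CPM. Themis was at 251.2 CPM in wt replicate 3 of 48 h, below 281.3 to 285.0 CPM. Between the times, the genotype effect on Nfatc1 differed by -0.388 and that on Rel by -0.374 on the log2 scale (edgeR, adjusted p = 0.0246 and 0.0216).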

How the results depend on the processing

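Of the called genes, 1 changed direction under an alternative: the change of Lat from 48 h to 72 h in ko cells, -0.15, was 0.001 with exon length offsets (edgeR, adjusted p = 0.983). The number of the 34 genes called at 48 h, 9, became 17 without both libraries that stand apart, and ran from 3 to 14 with 1 library left out. At 72 h it ran from 16 to 21 around 18, from 48 h to 72 h from 25 to 27 in wt and from 28 to 32 in ko, and in the interaction from 0 to 5 around 2. The interaction count was 6 with library-size scaling, 4 in DESeq2 and 5 without both libraries that stand apart; the cause was not tested. Exon length offsets gave 6 higher and 3 lower at 48 h, and 9 higher and 8 lower at 72 h. With the replicate block the 5 counts were 8, 18, 25, 30 and 2. The replicate numbers were not taken as pairs, since 9 of 24 pairs of same-numbered libraries had deviations that correlated above 0.1 (range -0.599 to 0.294), and 5 of 16 libraries correlated best with their own number. The lowest value of any of the 34 genes, 13.7 CPM, is far above the 0.102 CPM that 3 counts stand for, and the median biological coefficient of variation over all genes was 9.66%, a spread that may be technical.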
